A study of Mus musculus with 24 samples.

Results

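The immediate early genes described here are Fos, Fosb, Jun, Junb, Jund, Egr1, Atf3, Ier2 and Srf, measured in the gastrocnemius muscle of 24 male C57BL/6N mice. They were chosen by name, as the probes whose gene name, or the current symbol of whose accession, is one of these 9. The arrays held 11 such probes, of which 10 were bright enough to be compared, among 15958 such probes of 10697 named genes in all. The mice were 3 months old when they were put for 8 weeks on a high-fat diet whose lipids, largely corn oil, made up 35% of the weight (cHF, 8 mice). In the cHF+F group (8 mice) a concentrate of marine n-3 fatty acids with 46% DHA and 14% EPA replaced 15% of these lipids, and in the cHF+ROSI group (8 mice) the diet contained 10 mg rosiglitazone per kg, an anti-diabetic thiazolidinedione. A group kept on Chow is not analysed here. Every mouse was fasted for 10 hours in the light phase, re-fed Chow overnight and killed the next morning by cervical dislocation under pentobarbital anesthesia. The values thus describe muscle after re-feeding, anesthesia and killing, and the part of each in them was not tested. The mice were housed 2 to a cage, the labels do not say which shared one, and the p-values measure the spread between these animals.

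Immediate early genes are transcribed within minutes of a stimulus, from proteins that are already present in the cell, and their messenger RNAs are short-lived. In muscle they are known to respond to contraction, stretch, growth factors, insulin and stress. Fos, Fosb, Jun, Junb and Jund encode subunits of AP-1, a dimeric transcription factor in which a Fos protein needs a Jun partner. Atf3 encodes a stress-responsive protein of the related ATF family, Egr1 a zinc finger transcription factor, and Ier2 a small nuclear protein. Srf, the serum response factor, binds CArG boxes in front of many immediate early genes and of muscle actin genes, together with cofactors that receive the signal of MAP kinases or of the actin cytoskeleton.

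The promoters of Fos, Atf3 and Srf are shown because, of the 9 genes, Fos carried the largest difference between the cHF+F and the cHF mice, Atf3 that between the cHF+ROSI and the cHF mice, and Srf ran the opposite way to the others. RefSeq windows on mouse GRCm38.p6 were found for 7 of the 9 genes. Each sequence below holds the 250 bases before the start of the gene, read 5′ to 3′ along the strand of the gene, with CArG boxes, TGACGT and TATAAA on either strand in capitals.
Fos (chr12:85473640-85473889, plus strand): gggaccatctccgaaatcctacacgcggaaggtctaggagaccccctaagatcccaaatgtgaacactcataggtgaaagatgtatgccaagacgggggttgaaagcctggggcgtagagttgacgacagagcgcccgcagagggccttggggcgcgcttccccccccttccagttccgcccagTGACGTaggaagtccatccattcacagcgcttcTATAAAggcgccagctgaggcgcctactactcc
Atf3 (chr1:191183334-191183583, minus strand): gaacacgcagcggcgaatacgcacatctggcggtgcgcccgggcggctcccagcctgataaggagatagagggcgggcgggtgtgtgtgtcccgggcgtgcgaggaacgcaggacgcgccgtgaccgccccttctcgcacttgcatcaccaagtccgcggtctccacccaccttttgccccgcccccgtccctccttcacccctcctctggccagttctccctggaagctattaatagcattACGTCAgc
Srf (chr17:46556163-46556412, minus strand): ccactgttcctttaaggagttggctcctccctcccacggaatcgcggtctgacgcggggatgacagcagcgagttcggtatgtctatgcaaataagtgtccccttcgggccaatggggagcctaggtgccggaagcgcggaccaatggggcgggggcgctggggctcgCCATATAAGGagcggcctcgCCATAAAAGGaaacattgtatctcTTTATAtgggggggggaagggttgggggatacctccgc
In the Fos window, TGACGT, the core of a CRE, lay 66 bases before the start and TATAAA lay 33 bases before it. Atf3 had TGACGT on the opposite strand, 8 bases before the start. Srf had 2 CArG boxes, the nearer 62 bases before the start, and TATAAA on the opposite strand. Among the windows of the same length over all 32851 RefSeq starts in the table, a CArG box was found in 1.47%, TGACGT in 6.47% and TATAAA in 12.4%. No CArG box was found in the windows of Fos, Fosb, Jun, Junb, Jund or Atf3, which says only that the letters are absent from these 250 bases.

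The probes lay, by the scanner files on mouse build mm8, at chr12:86366053-86366112 for Fos, chr7:18461650-18461709 for Fosb, chr4:94541191-94541250 for Jun, chr8:73629526-73629585 for Jund and chr1:192871283-192871342 for Atf3. Junb had 2 probes, at chr8:87867087-87867146 and chr8:87867049-87867108, which overlap and are therefore not independent, and values are given for the brighter one unless the other is named. Ier2 also had 2 probes, at chr8:87549656-87549690 and chr8:87549829-87549887, and only the first was bright enough, the other having a mean signal of 1.93 times background in Cy3. The Egr1 probe was at chr18:34990715-34990774, and for Srf the files give only a short piece, chr17:46010028-46010035. An annotation of this build was not used here, so the exon or untranslated region of each probe is not stated. The probes of Fos and Jun were spotted 10 times on every array. The median SD among the spots of an array was 0.09 for Fos and 0.07 for Jun (log2 ratio), against SDs of 0.68 and 0.21 between the 24 arrays. The spread between arrays was thus wider than that between spots. With 1 array per mouse, it holds differences between mice, diets, slides and arrays together.

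Each value is the log2 ratio of the signal of 1 mouse (Cy5) over that of a reference pool of muscle RNA (Cy3), so 0 means the level of the pool and 1 a doubling. The pool also held RNA of a group given a higher dose of rosiglitazone, which is not analysed here. Each of the 8 slides carried 1 mouse of every group, the replicate number being that of the slide, and a diet always had the same place on the slide, so place and diet cannot be told apart. All 14 markers of skeletal muscle fibres were bright, between the 98.8 and the 100 percentile of the Cy5 signals, while none of 8 lymphocyte markers was bright enough. On slide 1 the cHF mouse had the highest value of all 24 for 4 of the 9 genes, and 8 of its 9 values lay above 0. The cHF+F mouse of slide 1 had the highest Srf value, and the cHF+ROSI mouse of slide 1 had all 9 genes above 0. Results on the 9 genes are therefore given with and without slide 1. The arrays also differed in brightness. On that of the cHF+ROSI mouse of slide 4, 91.1% of the spots were well above background in Cy5, where the next highest array had 61.3%. The cHF mouse of slide 3 had the lowest share, 30.4%. Both arrays were kept, and each was among those left out in turn. Fewer cells of a type and less RNA per cell cannot be told apart in such whole-muscle samples.

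**Figure D1:**
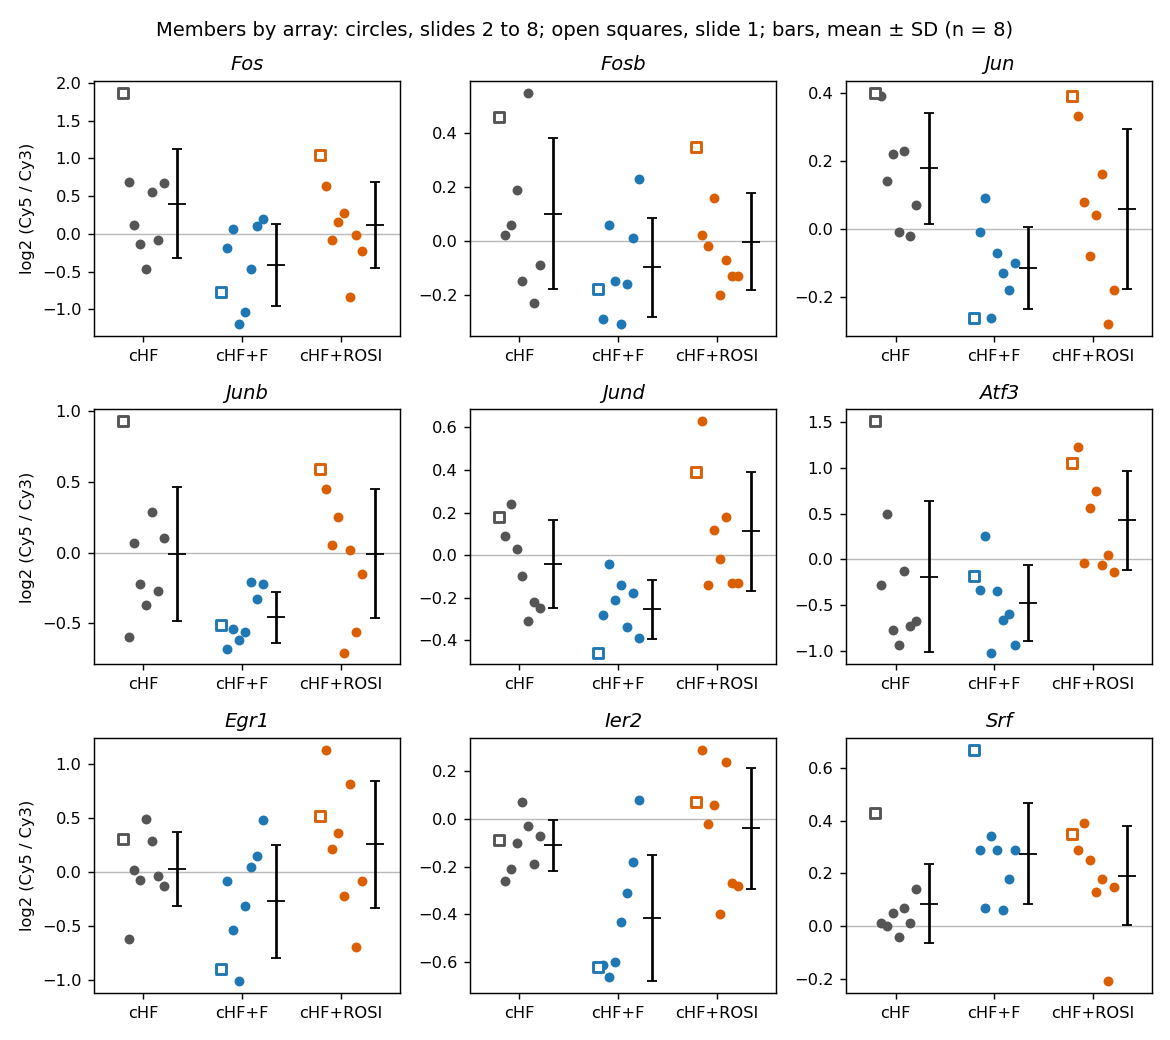
Log2 ratio of Cy5 over Cy3 for the 9 genes, 1 panel per gene with its own axis, in the cHF, cHF+F and cHF+ROSI mice (8 per group). Circles are the mice of slides 2 to 8, open squares those of slide 1, and bars the mean ± SD of each group, and the cHF mouse of slide 1 lies at the top for Fos (1.87), Jun, Junb and Atf3 (1.51).

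The spread between mice, each on 1 array, was large for these genes. The SD within groups was 0.62 for Fos and for Atf3, 0.49 for Egr1 and 0.39 for Junb, compared with a median of 0.15 over all kept probes, and these 4 genes stood at the 97.7 to 99.3 percentile. It was 0.22 for Fosb, Jund and Ier2 and 0.18 for Jun and Srf. Over the 24 mice Fos spanned 3.06 on the log2 scale, Atf3 2.53 and Egr1 2.14.

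How n-3 fatty acids in the diet were related to these genes was addressed by setting cHF+F against cHF mice. The mean of 8 of the 9 genes was lower in the cHF+F mice, and Srf was higher. Of all probes 49.6% were lower and, with 1 probe per gene, 53.2% of all 10697 genes. None of the 9 passed the threshold of an adjusted p under 0.05 in limma, as 0% of all probes did. At an unadjusted p under 0.05, Fos, Jun, Junb, Jund and Ier2 were lower and Srf was higher, which is 5 genes lower against 4.00% of all probes and 1 gene higher against 2.85%. The median difference was -0.29 over the 9 genes and -0.006 over all 10697 genes. Without slide 1, 3 genes were lower (Fos, Jun and Ier2) and 1 was higher (Srf) at an unadjusted p under 0.05, where 4.52% and 3.81% of all probes were. The median over the 9 genes was then -0.17. With the slide as a block in the fit there were again 5 lower genes (6.44% of all probes) and 1 higher gene (5.67%). When each of the 24 mice was left out in turn, the unadjusted p of Fos, Jun and Ier2 was under 0.05 in all 24 fits, that of Junb in 23 (0.0574 without cHF mouse 1), that of Srf in 18 and that of Jund in 14. For Srf it was above without the cHF mouse 2, 3, 5 or 7 or the cHF+F mouse 1 or 4, and for Jund without the cHF mouse 1, 2, 3 or 4, the cHF+F mouse 1, 2, 4, 6 or 8, or the cHF+ROSI mouse 4.

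Fos, whose protein is the inducible partner in AP-1, ranged in the cHF mice from -0.47 over a median of 0.33 to 1.87. In the cHF+F mice it ranged from -1.20 over -0.33 to 0.19. The groups overlapped, but all 8 cHF+F mice lay below the cHF median and 3 of them below the lowest cHF mouse. Fos was 1.75-fold lower in the cHF+F mice (log2 change -0.81, SE 0.28, 95% interval -1.38 to -0.24, limma p 0.00714, adjusted p 0.506). Within slides the cHF+F mouse was lower than the cHF mouse on 7 of 8 slides, by a median of -0.71. The difference on slide 1 was -2.64, and without slide 1 the log2 change was -0.55 (SE 0.23, limma p 0.0272). With the slide as a block in the fit of all 24 arrays, the p was 0.00435 (adjusted p 0.196). Fosb, a close relative of Fos, was at 0.10 ± 0.28 in the cHF and -0.10 ± 0.19 in the cHF+F mice (SD, n = 8 each), a log2 change of -0.20 (limma p 0.0672), and -0.14 without slide 1 (limma p 0.190).

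Jun, a partner of Fos proteins, had the smallest p of the 9 genes in this comparison. It ranged from -0.02 over 0.18 to 0.40 in the cHF mice and from -0.26 over -0.11 to 0.09 in the cHF+F mice. Of the 8 cHF+F mice, 6 lay below the lowest cHF mouse. The log2 change was -0.29 (SE 0.09, limma p 0.00229, adjusted p 0.421), a 1.22-fold lower level, and it was -0.24 without slide 1 (limma p 0.00811). The cHF+F mouse was lower on 8 of 8 slides, with differences between -0.66 and -0.05.

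Junb, which encodes an AP-1 subunit that is less active than Jun on many targets, ranged from -0.60 over -0.08 to 0.93 in the cHF mice. All 8 cHF+F mice lay between -0.68 and -0.21, with a median of -0.53, below the median of the cHF mice. Their SD was 0.18 against 0.48 in the cHF mice. The log2 change was -0.45 (SE 0.18, limma p 0.0190, adjusted p 0.617) for the brighter probe and -0.31 (limma p 0.0559) for the other. On all 8 slides the cHF+F mouse was lower for the brighter probe, and on 7 for the other. Without slide 1 the values were -0.31 (limma p 0.0580) and -0.17 (limma p 0.196). Jund, the constitutive Jun protein, had a mean of -0.04 ± 0.21 in the cHF and -0.26 ± 0.14 in the cHF+F mice (SD, n = 8 each). Its log2 change was -0.21 (limma p 0.0459, adjusted p 0.718) and -0.15 without slide 1 (limma p 0.154).

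Ier2 ranged from -0.26 over -0.10 to 0.07 in the cHF mice and from -0.66 over -0.52 to 0.08 in the cHF+F mice. Of the cHF+F mice, 6 lay below every cHF mouse, and 1, that of slide 8, lay above all of them. The log2 change was -0.31 (SE 0.10, limma p 0.00612, adjusted p 0.488), and -0.28 without slide 1 (limma p 0.0224). The second, dim probe of Ier2 had means of -0.06 and 0.06 and was not tested. Egr1 and Atf3 had overlapping groups and wide intervals. For Egr1 the cHF mice ranged from -0.62 over -0.01 to 0.49 and the cHF+F mice from -1.01 over -0.19 to 0.48, a log2 change of -0.30 (95% interval -0.76 to 0.16, limma p 0.191), and -0.17 without slide 1 (limma p 0.477). For Atf3 the change was -0.29 (95% interval -0.86 to 0.29, limma p 0.317). It was -0.09 without slide 1 (limma p 0.713) and -0.04 without the cHF mouse of slide 1 alone.

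Srf, the factor upstream of several of the other genes, ranged from -0.04 over 0.03 to 0.43 in the cHF mice and from 0.06 over 0.29 to 0.67 in the cHF+F mice. The groups overlapped, but none of the cHF+F mice was below the cHF median. The log2 change was 0.19 (SE 0.09, limma p 0.0343, adjusted p 0.680), and 0.18 without slide 1 (limma p 0.0158). Srf was higher in the cHF+F mouse on 7 of 8 slides. The slide block gave p 0.00794 for this gene (adjusted p 0.232).

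**Figure D2:**
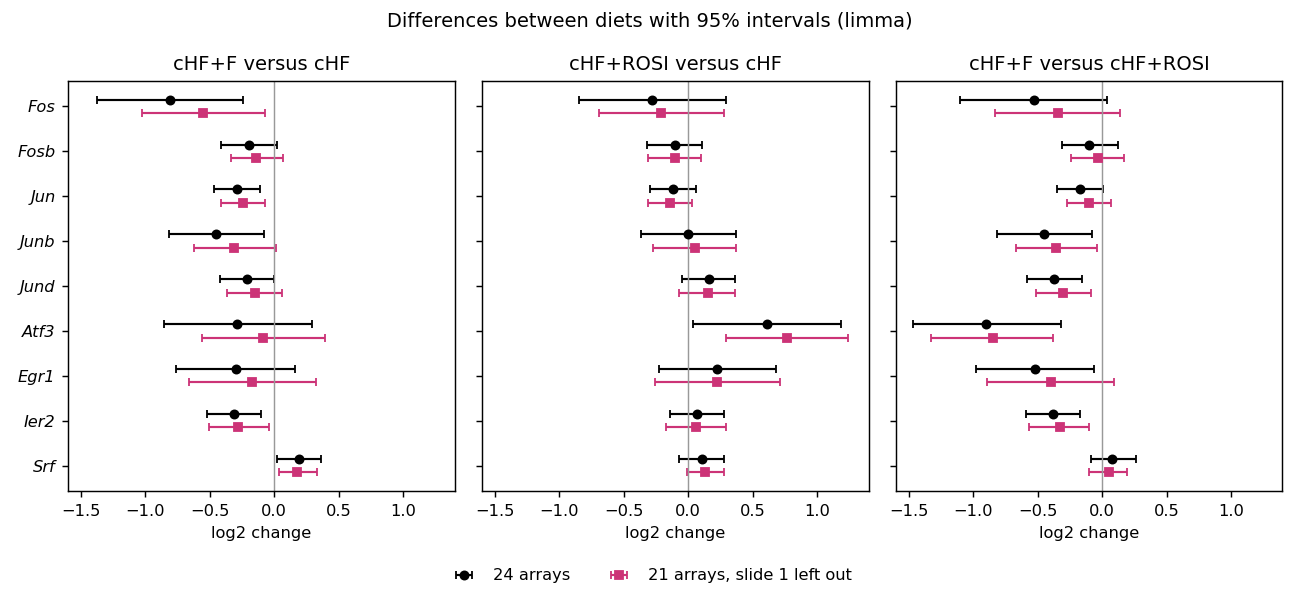
Log2 change with its 95% interval (limma) for the 9 genes in each of the 3 comparisons between diets, from all 24 arrays (black circles) and without slide 1 (magenta squares). In the left panel the points of 8 genes lie below 0 and that of Srf above it, and leaving out slide 1 moves Fos from -0.81 to -0.55.

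The slides were not alike in this comparison. On slides 1 to 6, between 7 and 9 of the 9 genes were lower in the cHF+F than in the cHF mouse. On slide 8 the number was 5, and on slide 7 it was 2, with a median difference of 0.13. The cHF mouse of slide 7 was itself low, with 1 of 9 genes above 0. Several of the 9 genes are correlated with each other, so these counts describe 8 pairs of mice and not independent genes.

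**Figure D3:**
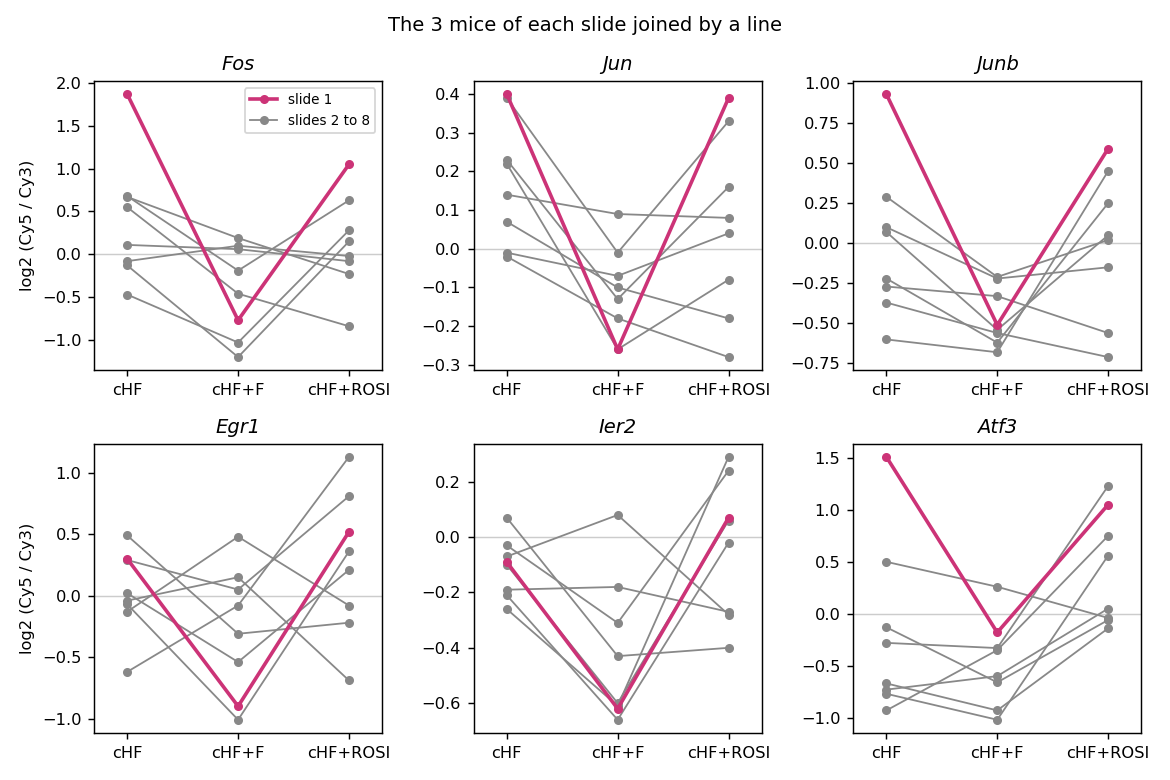
Log2 ratio of 6 of the genes in the 3 mice of each slide, joined by a line, with slide 1 in magenta and slides 2 to 8 in grey. The cHF+F mouse is lower than the cHF mouse on all 8 slides for Jun and Junb, and for Fos the step on slide 1 is the largest of the 8 (-2.64).

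Rosiglitazone was examined in the same way, as cHF+ROSI against cHF. The mean was lower for 3 of the 9 genes (Fos, Fosb and Jun) and higher for the others, where 54.7% of all probes and 55.3% of all genes were lower. The median difference of the 9 was 0.07. Junb was at -0.01 in both groups. In limma none passed the adjusted threshold (0% of all probes), none was lower at an unadjusted p under 0.05 (3.01% of all probes) and 1, Atf3, was higher (1.69%). The same counts were found without slide 1 (4.47% of all probes lower and 2.96% higher) and in the fit blocked by slide (5.58% and 3.97%).

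Atf3 ranged from -0.93 over -0.48 to 1.51 in the cHF mice and from -0.14 over 0.30 to 1.23 in the cHF+ROSI mice. Apart from the cHF mice of slides 1 and 3, at 1.51 and 0.50, every cHF mouse was at -0.13 or lower, and 5 cHF mice lay below the lowest cHF+ROSI mouse. The log2 change was 0.61, a 1.53-fold higher level (SE 0.28, 95% interval 0.04 to 1.19, limma p 0.0377, adjusted p 0.996). The unadjusted p stayed under 0.05 in 15 of the 24 fits that each left out 1 mouse. It did not without any one of the cHF mice 2, 4, 5, 7 or 8 or of the cHF+ROSI mice 1, 2, 4 or 5. Without slide 1 the change was 0.77 (limma p 0.00287, adjusted p 0.452), and with the slide as a block 0.61 (limma p 0.0118). Within slides the cHF+ROSI mouse was higher on 6 of 8, the differences lying between -0.54 and 1.68.

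The remaining genes did not differ between the cHF+ROSI and the cHF mice beyond their spread. The 95% intervals were -0.85 to 0.29 for Fos, -0.30 to 0.06 for Jun, -0.37 to 0.37 for Junb, -0.23 to 0.68 for Egr1 and -0.14 to 0.28 for Ier2. These intervals leave room for changes of the size seen with n-3 fatty acids for Fos and Jun, and they do not show that the diets acted alike. Without slide 1 the log2 changes were -0.21 for Fos, -0.10 for Fosb, -0.14 for Jun, 0.05 for Junb, 0.15 for Jund, 0.22 for Egr1, 0.06 for Ier2 and 0.13 for Srf (limma p 0.0694 to 0.747). The direction of Junb, Jund and Ier2 turned when Cy5 was used alone, with log2 changes of -0.06, -0.09 and 0.00.

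Whether the 2 diets differed from each other was tested directly, as cHF+F against cHF+ROSI. Again 8 of the 9 means were lower in the cHF+F mice, where 45.8% of all probes and 48.5% of all genes were lower. The median difference of the 9 was -0.38. No gene passed the adjusted threshold in limma (0% of all probes). At an unadjusted p under 0.05, 5 genes were lower (2.65% of all probes), namely Junb, Jund, Egr1, Atf3 and Ier2, and none was higher (4.02%). Without slide 1 there were 4 lower genes (2.81% of all probes), without Egr1, and none higher (4.21%). With the slide as a block there were 7 lower genes (5.43%), Fos and Jun being added, and none higher (7.70%). Leaving out 1 mouse at a time, the unadjusted p of Jund, Atf3 and Ier2 was under 0.05 in all 24 fits. That of Junb was 0.0501 without the cHF+ROSI mouse 1, and that of Egr1 was above 0.05, and at most 0.0755, without the cHF+F mouse 1 or 4 or the cHF+ROSI mouse 2 or 6.

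Atf3 was 1.86-fold lower in the cHF+F than in the cHF+ROSI mice (log2 change -0.90, SE 0.28, limma p 0.00350, adjusted p 0.561). Its cHF+F values ran from -1.02 over -0.47 to 0.26, and 7 of the 8 lay below the lowest cHF+ROSI mouse. Without slide 1 the change was -0.85 (limma p 0.00115). Jund was at -0.26 ± 0.14 and 0.11 ± 0.28 (SD, n = 8 each), with 7 of 8 cHF+F mice below the lowest cHF+ROSI mouse. Its log2 change was -0.37 (limma p 0.00124, adjusted p 0.486), or -0.30 without slide 1 (limma p 0.00813). In Cy5 alone the Jund change was only -0.24 (limma p 0.371), and in Cy3 alone it was 0.12 (limma p 0.537). Ier2 was at -0.42 ± 0.26 and -0.04 ± 0.25, with a log2 change of -0.38 (limma p 0.00108, adjusted p 0.486), or -0.33 without slide 1 (limma p 0.00687).

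For Egr1 the cHF+ROSI mice ranged from -0.69 over 0.28 to 1.13. The log2 change was -0.52 (SE 0.22, limma p 0.0269, adjusted p 0.724), and -0.40 without slide 1 (limma p 0.108). Junb gave -0.45 (limma p 0.0188) with the brighter probe and -0.35 (limma p 0.0346) with the other, and all 8 cHF+F mice lay below the cHF+ROSI median. Without slide 1 the brighter Junb probe gave -0.36 (limma p 0.0294), and the other gave -0.25 and was no longer under 0.05 (limma p 0.0591). Fos gave -0.53 (limma p 0.0682) and Jun -0.17 (limma p 0.0588), and in both genes some slides ran the other way, the cHF+F mouse being lower on 4 of 8 slides for Fos and on 5 for Jun. Without slide 1 Fos gave -0.34 (limma p 0.154) and Jun -0.10 (limma p 0.228). Fosb and Srf gave -0.10 and 0.08 with slide 1, and -0.03 and 0.05 without it (limma p 0.337 to 0.750).

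Ordered by group means, Fos, Fosb and Jun were highest in the cHF mice, then in the cHF+ROSI mice and lowest in the cHF+F mice. Jund, Egr1, Atf3 and Ier2 were highest in the cHF+ROSI mice and lowest in the cHF+F mice. The neighbouring groups in these orders differed at an unadjusted p under 0.05 only for Atf3 between cHF+ROSI and cHF, and for Jund and Ier2 between cHF and cHF+F. For Srf the order was cHF+F (0.27 ± 0.19), cHF+ROSI (0.19 ± 0.19) and cHF (0.08 ± 0.15; SD, n = 8 each).

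The reference channel was examined because a ratio can move with either dye. In Cy3 alone the differences of the 10 bright probes between cHF+F and cHF were between -0.09 and 0.06 on the log2 scale (unadjusted limma p 0.445 to 0.985). In Cy5 alone the log2 change was -0.87 for Fos (limma p 0.0283), -0.31 for Jun (limma p 0.0220) and -0.44 for Junb (limma p 0.0329). In Cy5 alone the p was not under 0.05 for Ier2 (-0.33, limma p 0.0523), Srf (0.18, limma p 0.103), Jund (-0.32, limma p 0.225) or the second Junb probe (-0.29, limma p 0.413). Fosb, Egr1 and Atf3 were at -0.28, -0.24 and -0.36 (limma p 0.155 to 0.384). In the other comparisons the differences in Cy3 reached -0.21 and 0.23, with unadjusted p of at least 0.203. Between cHF+ROSI and cHF, Atf3 was at 0.52 in Cy5 alone (limma p 0.215) and at -0.13 in Cy3 alone (limma p 0.312). With the slide as a block, the difference of -0.21 for Jund in Cy3 between cHF+ROSI and cHF had a p of 0.0204 (limma). Between cHF+F and cHF+ROSI, Cy5 alone gave -0.24 for Jund (limma p 0.371), -0.33 for Ier2 (limma p 0.0547) and -0.39 for Junb (limma p 0.0591). There it gave -0.89 for Atf3 (limma p 0.0407), -0.64 for Egr1 (limma p 0.025), -0.79 for Fos (limma p 0.0441) and -0.28 for Jun (limma p 0.0401). The second Junb probe, Fos and Jund varied most in the reference, with SDs of 0.54, 0.40 and 0.39 over the 24 arrays.

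Several of the genes varied together across mice. Over 24 arrays, which share the reference pool and, for the mice of a slide, that slide, Pearson's r was 0.86 between Egr1 and Ier2 (Spearman's rho 0.87), 0.68 between Egr1 and Junb and 0.69 between Fos and Jun. After group and slide means were removed, these were 0.88, 0.81 and 0.62. Egr1 and Ier2 stayed at 0.82 without the 2 mice farthest from the median and were at 0.81, 0.83 and 0.92 within the cHF, cHF+F and cHF+ROSI mice. Fos was most like Jun (0.69), Fosb (0.68), Junb (0.66) and Atf3 (0.63), and only at 0.35 like Egr1. Without slide 1 these values were 0.52 for Jun, 0.49 for Fosb, 0.37 for Junb, 0.40 for Atf3 and 0.21 for Egr1. The relation of Fos and Atf3 was 0.80, 0.19 and 0.86 within the cHF, cHF+F and cHF+ROSI mice. Atf3 was only at 0.23 with Ier2 and 0.34 with Egr1, and at -0.10 and 0.15 after group means were removed. For Srf r lay between -0.10 and 0.24 with the other genes over all arrays. Within the cHF mice alone it was 0.90 with Fos and 0.86 with Junb, where the mouse of slide 1 is the highest for all 3 genes. These correlations are descriptions without a test.

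**Figure D4:**
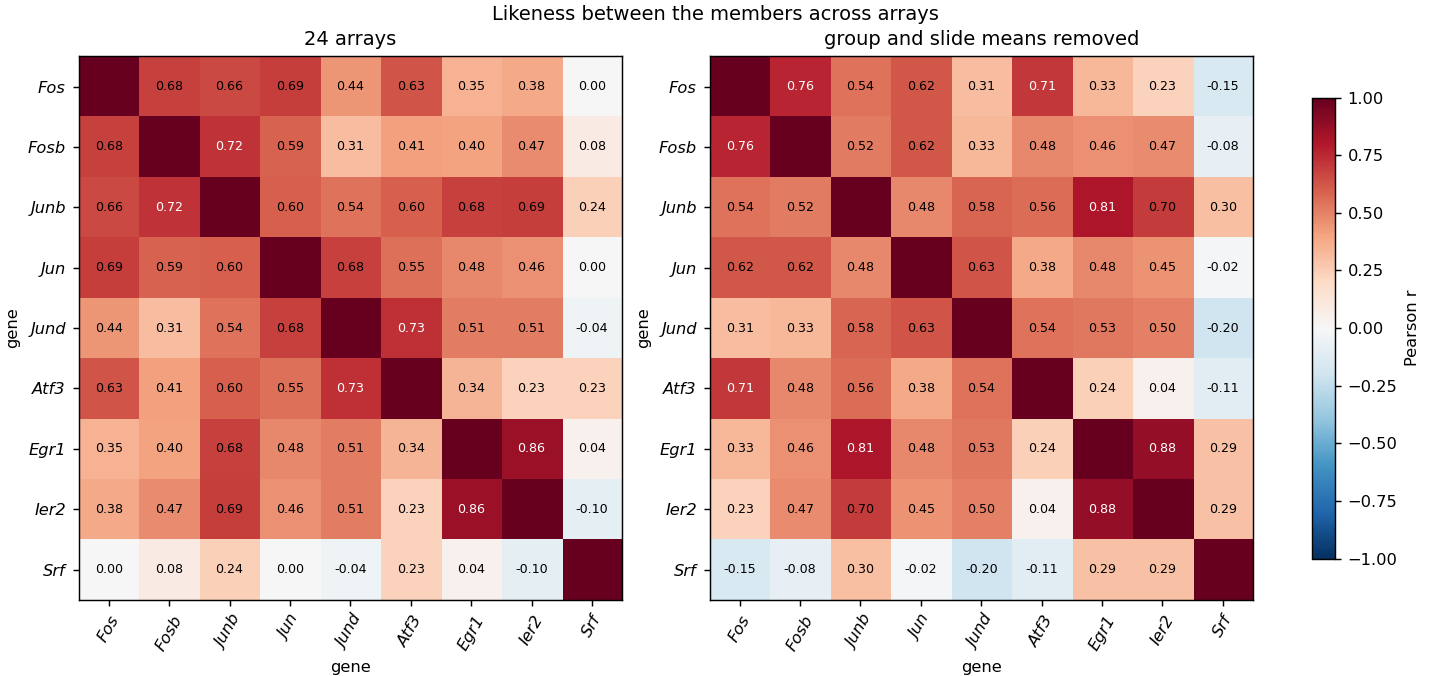
Pearson r between each pair of the 9 genes over 24 arrays (left) and after group and slide means were removed (right), with red for positive and blue for negative values. Egr1 and Ier2 form the closest pair in each panel (0.86 and 0.88), and the row of Srf is pale.

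Among the other 10688 genes, those with the pattern most like Fos were Epn3 (r 0.78), Chmp7, Gabbr2 and Btg2 (0.77 each), Smad4 and Myc (0.73 each), Myh14 (0.72) and Ier5 (0.71). Btg2, Myc and Ier5 are themselves immediate early genes. Without slide 1 these values were lower, between 0.46 and 0.63. Among those most like Egr1 were Tcf15 (0.72), Ankrd11 and Rgs5 (0.71 each) and Actr3 (0.69), with 0.65 to 0.77 without slide 1. Most like Junb were Btg2 (0.84), Smad4 (0.81), Ptp4a1 and Rhoc (0.80 each) and Ubtf (0.79). The median r over all these genes was 0.01 with Fos, 0.00 with Egr1 and -0.01 with Junb.

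Further immediate early genes outside the 9 were taken from a list of 42, of which 39 were bright enough. In the cHF+F against the cHF mice 29 were lower and 10 higher, with a median of -0.11. At an unadjusted p under 0.05, 8 were lower (4.00% of all probes) and none was higher (2.85%), and without slide 1 the numbers were 7 and 0 (4.52% and 3.81%). Socs3, an inhibitor of cytokine signalling, had a log2 change of -0.47 (SE 0.12, limma p 0.000924, adjusted p 0.369), and -0.37 without slide 1. Gadd45b, a stress gene, and Klf4, a zinc finger factor, had -0.38 each (limma p 0.00756 and 0.0164). Ccn1, a secreted matrix protein, and Cebpb, a bZIP factor, had -0.33 each (limma p 0.00709 and 0.0104), and Hes1, a target of Notch, -0.23 (limma p 0.0103). Nfkbia, Zfp36 and Per1, which are also known as rapidly induced, had changes of 0.11, 0.04 and 0.06 (limma p 0.333 to 0.699).

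In the cHF+ROSI against the cHF mice 24 of the 39 genes were lower, 5 of them at an unadjusted p under 0.05 (3.01% of all probes), and 1 of 15 was higher (1.69%). Gadd45g had -0.45 (limma p 0.00129, adjusted p 0.996), Klf4 -0.35 (limma p 0.0259), Rhob, a small GTPase, -0.24 (limma p 0.0154), and Tob2 0.24 (limma p 0.0362). Plk3 and Zfp36l1 had -0.18 each (limma p 0.0359 and 0.0497). Between cHF+F and cHF+ROSI, 4 were lower (2.65% of all probes) and 2 higher (4.02%) at this threshold, and without slide 1 the numbers were 4 and 1, Sgk1 being lost (limma p 0.192). Ier5 had -0.77 (limma p 0.00411), Btg2, an antiproliferative gene, -0.54 (limma p 0.00386), Trib1 -0.38 (limma p 0.0436) and Plk2 -0.17 (limma p 0.0146), while Gadd45g had 0.45 (limma p 0.00122) and Sgk1, a kinase induced by serum and glucocorticoids, 0.27 (limma p 0.0471).

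Of the other AP-1 and related bZIP genes, 13 of 15 were bright enough. In the cHF+F against the cHF mice 4 were lower and 9 higher, and Batf3 (-0.16, limma p 0.0293) was the only one at an unadjusted p under 0.05. Of all probes 4.00% were lower there and 2.85% higher. The count at that threshold was 0 in cHF+ROSI against cHF (3.01% and 1.69% of all probes) and in cHF+F against cHF+ROSI (2.65% and 4.02%). Of the other EGR and NR4A genes 4 of 8 could be tested, and none reached it in any comparison. In lists this short, such counts do not set the genes apart from all probes. Nr4a1, a nuclear receptor that is induced together with Fos in many cells, had -0.09 (limma p 0.628), and Egr2 -0.07 (limma p 0.721) in the cHF+F mice.

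Phosphatases that switch off MAP kinases are induced by the same signals. Of 11, 10 were bright enough, and in the cHF+F against the cHF mice 3 were lower at an unadjusted p under 0.05 (4.00% of all probes) and none was higher (2.85%). Dusp6, which acts on ERK, had -0.34 (SE 0.10, limma p 0.00289, adjusted p 0.434), Dusp1 -0.30 (limma p 0.0274) and Dusp10 -0.32 (limma p 0.0411). Without slide 1 only Dusp6 remained (limma p 0.00081), where 4.52% of all probes were lower. Dusp6 had -0.25 in the cHF+ROSI mice (limma p 0.0215). Against the cHF+ROSI mice, the cHF+F mice had -0.46 for Dusp1 (limma p 0.00175), -0.36 for Dusp10 and -0.16 for Dusp4, which is 3 of 10 genes lower against 2.65% of all probes, and 2 of 10 without slide 1 (2.81%).

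Upstream of these genes, 22 of 25 components of the MAP kinase pathways were measured. In the cHF+F against the cHF mice 19 of them were higher and 3 lower, by small amounts (median 0.04), and 5 were higher at an unadjusted p under 0.05 (2.85% of all probes). These were Mapk14 (0.16, limma p 0.00754) and Mapk11 (0.14), which encode p38 kinases, and Map2k4 (0.13), Map2k6 (0.18) and Map2k1 (0.12), which encode their activators or that of ERK. Without slide 1, 7 were higher (3.81% of all probes) and 1 lower (4.52%). Mapk11 and Map2k1 had 0.12 each in the cHF+ROSI mice (limma p 0.0369 and 0.0418), and 2 of the 22 were higher there in all (1.69% of all probes). Between cHF+F and cHF+ROSI 3 were higher (4.02% of all probes), namely Mapk9 (0.16), Map2k4 (0.12) and Mapk14 (0.12).

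Cofactors and ternary complex factors that work with the serum response factor were measured for 5 of 8 genes. Elk3 had -0.25 in the cHF+F mice (limma p 0.00633) and -0.17 in the cHF+ROSI mice (limma p 0.0478), and Mrtfa 0.24 in the cHF+F mice (limma p 0.0596). Against cHF, Elk3 was the only 1 of the 5 at an unadjusted p under 0.05, where 4.00% and 3.01% of all probes were lower. Of 18 cytoskeletal targets of Srf, 8 were lower and 10 higher in the cHF+F against the cHF mice, and 3 were lower at an unadjusted p under 0.05 (4.00% of all probes). These were Csrp3, a protein of the Z-disc (-0.51, limma p 0.0128), Ankrd1, which is induced by stretch (-0.46, limma p 0.0323), and Tpm3, a slow-fibre tropomyosin (-0.14, limma p 0.0435). Without slide 1 there were 2 (4.52% of all probes), Tpm3 being lost (limma p 0.0681). For Tpm3 these values are those of its brightest probe alone. The paper lists a Tpm3 probe as lower in the cHF+F than in the cHF mice by a fold of at least 1.5. Acta1, the skeletal muscle actin, had 0.09 (limma p 0.673) and Actb -0.07 (limma p 0.502). Csrp3 and Ankrd1 were also lower against the cHF+ROSI mice (-0.68 and -0.71, limma p 0.00145 and 0.00184), as was Tpm4 (-0.19), while Actc1 was at 0.36 (limma p 0.0212, and 0.0791 without slide 1), which is 3 of 18 genes lower (2.65% of all probes) and 1 higher (4.02%). In the cHF+ROSI against the cHF mice the only one was Actg1 (0.29, limma p 0.0293), which is 1 of 18 genes higher (1.69% of all probes) and 0 lower (3.01%).

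**Figure D5:**
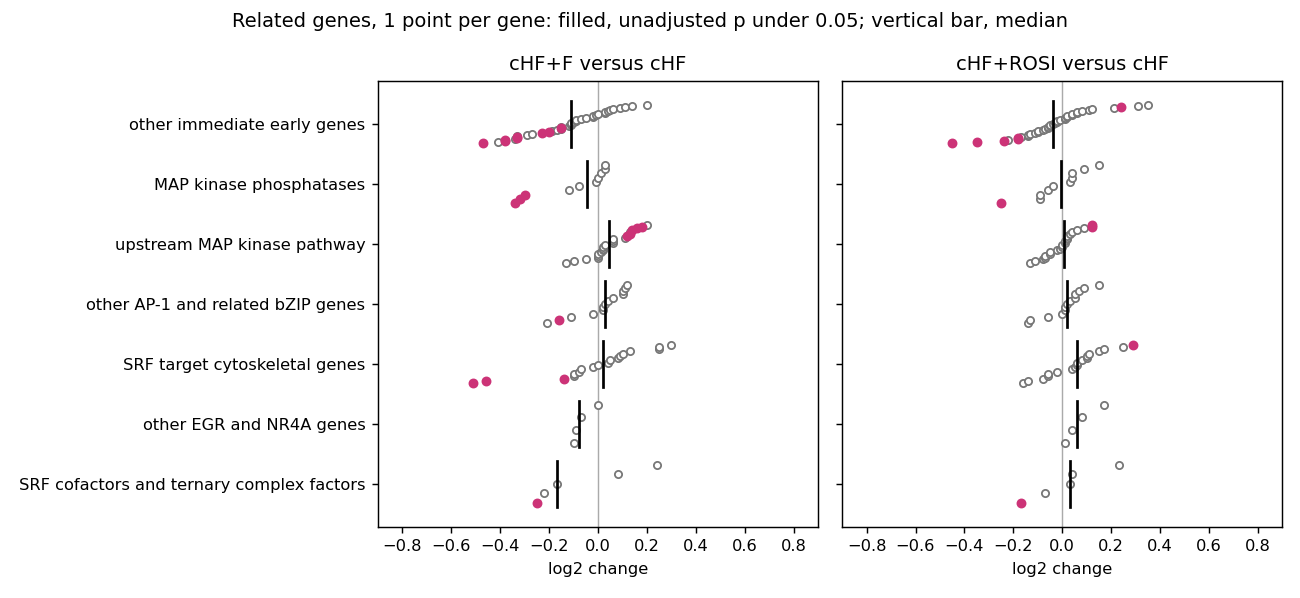
Log2 change of related genes in the cHF+F (left) and the cHF+ROSI mice (right), each against the same cHF mice, with 1 point per gene grouped by list. Filled points have an unadjusted limma p under 0.05 and bars are medians, and among the other immediate early genes the median lies at -0.11 on the left and -0.04 on the right.

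Markers of other cell types were followed because muscle holds vessels, connective tissue and leukocytes that transcribe the same genes. All 14 endothelial markers were lower in the cHF+F than in the cHF mice, 6 of them at an unadjusted p under 0.05 (4.00% of all probes) and 8 without slide 1 (4.52%), led by Icam2 (-0.25, limma adjusted p 0.0774) and Cldn5 (-0.65, limma adjusted p 0.121). Their mean log2 ratio ranged from -0.18 to 0.16 in the cHF, from -0.29 to -0.08 in the cHF+F and from -0.22 to 0.09 in the cHF+ROSI mice. It correlated over the 24 arrays at 0.54 with Egr1, 0.18 with Junb and 0.05 with Fos. All 12 bright macrophage markers were lower as well, 3 at an unadjusted p under 0.05 (4.00% of all probes) and 5 without slide 1 (4.52%), with means from -0.20 to 0.29 in the cHF, -0.57 to 0.20 in the cHF+F and -0.30 to 0.28 in the cHF+ROSI mice. The mean of the macrophage markers correlated at 0.08 with Egr1, 0.22 with Junb and 0.08 with Fos. Among all the lists of markers, Fos had its r farthest from 0 with the fibroblast markers (-0.46). Itgam was too dim, and no endothelial marker was. In the cHF+ROSI against the cHF mice 11 of the 14 endothelial markers were also lower, where 55.3% of all genes were. Of these markers 3 were lower at an unadjusted p under 0.05 (3.01% of all probes) and 4 without slide 1 (4.47%), among them Cldn5 (-0.42, limma p 0.00382). Of the 12 macrophage markers 11 were lower there, 0 of them at that threshold. The part of these cells in the values of the immediate early genes was not tested.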

How the data were processed

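RNA of individual mice (Cy5) and of a common reference pool (Cy3) had been hybridised by the authors to 44K 2-colour Agilent arrays without a dye swap. Per the file headers, the deposited scanner files hold spot and background intensity on a linear scale from Feature Extraction 10.5.1.1, while the labels name version 10.5.5.1. The authors also deposited a table of normalized log2 values, used as an alternative. In it, 16 columns are named for cHF or cHF+F mice, and 8 columns named for another diet were not used.

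Median signals were corrected by normexp with an offset of 50, normalized by loess with a span of 0.3 within each array, and replicate spots were averaged. Flagged spots were left out, 4 unflagged arrays per group were required, and probes with a mean signal of at least 2 times background in both channels were kept. The number of arrays limits the precision. Groups came from the labels. All 24 arrays entered a single two-sided limma model of the 3 groups (limma 3.58.1, R 4.3.3) with Benjamini-Hochberg adjustment over all kept probes and a threshold of 0.05. The fit was tested on simulated data. Of the kept probes, 12577 were named by accession, 2544 by the file only and 837 not at all.

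The members and the lists were chosen with earlier results of these data known. Every member is named, with 1 probe per gene, the brightest. In the lists (other AP-1, EGR and NR4A, other immediate early, MAP kinase phosphatase, SRF cofactor, MAP kinase, SRF target and cell marker genes) at most 6 genes per comparison with an unadjusted p under 0.05 are named by smallest p, and genes named beyond these were chosen after their values were seen. The 8 genes most like Fos and 5 each for Egr1 and Junb were taken by Pearson r, of which 1 for Egr1 is not reported here. Alternatives were the spot summary, background, normalization, filter, array weights, slide as a block, each array left out, the t-test of the methods and the mean over probes of a gene. A fit with the slide as a block and slide 1 left out was chosen after seeing the data.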

Additional observations from a re-analysis of the deposited data

Results flagged for a closer look

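In each group of 8 mice the highest and the lowest value of the 10 bright probes was compared with its neighbour by Dixon's criterion, which flags about 1 in 20 groups by chance, and 3 of 30 were flagged, all for Srf. The cHF mouse of slide 1 was at 0.43, where the next was at 0.14. The cHF+F mouse of the same slide was at 0.67, where the next was at 0.34. The cHF+ROSI mouse of slide 7 was at -0.21, where the next was at 0.13. The Srf difference between cHF+F and cHF was 0.19 with and 0.18 without slide 1.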

How the results depend on the processing

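No member passed an adjusted p under 0.05 in limma in any comparison under any alternative run. In cHF+F against cHF all 359 values of the members under the alternatives kept their direction, Fos lying between -1.24 and -0.55. The number of members at an unadjusted p under 0.05 (6) was 3 in Cy5 alone and 2 with median centring, and 4 to 7 when 1 array was left out. Apart from the t-test and the fit of all arrays blocked by slide, the share of all probes at this threshold was not counted in the settings named in this section. The member counts in those settings can therefore not be set against it. The count of all probes called, 0 in the main fit, was 2 with mean spot signals, 3 without a filter, 12 with array weights, 6 with the slide as a fixed replicate block and 20 with it as a random one, and 0 to 2 when 1 array was left out.

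In cHF+ROSI against cHF the number of members at an unadjusted p under 0.05 (1) was 0 with processed signals, Cy5 alone, median centring and the t-test of the methods, 3 with array weights, 2 with the slide block and slide 1 left out (which called 2 probes), and 0 to 2 with 1 array left out. The change of Junb, 0.00, turned to -0.06 without background correction and in Cy5 alone, -0.10 with processed signals, -0.01 with median centring and -0.02 with a loess span of 0.1, and lay between -0.08 and 0.14 with 1 array left out. Jund turned to -0.09 and Ier2 to 0.00 in Cy5 alone. In cHF+F against cHF+ROSI the random slide block called 3 probes, leaving out 1 array called 0 to 2 and gave 4 to 7 members (5), and Srf turned to 0.00 with array weights. The cause was not tested.

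The methods' t-test on the same values gave 1265, 755 and 938 probes and 6, 0 and 4 members at a p under 0.05 for cHF+F against cHF, cHF+ROSI against cHF and cHF+F against cHF+ROSI. With a fold of at least 1.5 as well, these were 15, 6 and 14 probes and 1, 0 and 1 members, out of 15958 probes and 9 members. With a fold of at least 1.2 they were 4, 0 and 4 members, and the probes were not counted there. After Benjamini-Hochberg adjustment they were 0 probes and 0 members.

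The replicate numbers pair the mice only by slide. Same-slide mice correlated in their deviations from the group means at -0.109 to 0.643 for cHF+F and cHF, 0.0363 to 0.602 for cHF+ROSI and cHF, and -0.00378 to 0.463 for cHF+F and cHF+ROSI, so not every pair was above 0.1. In the same order 6, 7 and 5 of the 8 pairs were above 0.1. The mean r was 0.346, 0.303 and 0.159 for mice of the same slide. For mice of different slides it was -0.0468, -0.0403 and -0.0223. The main fit did not take this likeness into account. With the slide block the members at an unadjusted p under 0.05 numbered 6, 1 and 7. In the authors' log2 table, 16 columns, the change of Fos between cHF+F and cHF was -0.96 (limma p 0.00381, adjusted p 0.260). Precision is limited by 8 mice per group and by dim signals of Fosb, at 2.15 times background in Cy3.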

Other observations

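Markers of the other cell types in the muscle gave no count above 1 gene at an unadjusted p under 0.05 in the cHF+F against the cHF mice (limma). In this comparison 53.2% of all genes were lower, and at that threshold 4.00% of all probes were lower and 2.85% higher. Of 9 markers of smooth muscle and pericytes 5 were lower, 1 of them at that threshold, and of 9 fibroblast markers 5 were lower, again 1 at that threshold. Of 9 bright adipocyte markers 6 were lower, of 6 Schwann cell markers 3, of 4 blood markers 3 and of 3 satellite cell markers 2, with 0 at the threshold. Of 14 skeletal muscle fibre markers 10 were higher, with a median log2 change of 0.09.

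In the cHF+ROSI against the cHF mice all 6 Schwann cell markers were higher (median 0.29) and all 4 bright blood markers were lower (median -0.44), with 0 and 1 of them at an unadjusted p under 0.05 in limma. Here 55.3% of all genes were lower, and at that threshold 3.01% of all probes were lower and 1.69% higher. The fibre markers were lower for 12 of 14 genes (median -0.14), none at the threshold. The mean log2 ratio of the blood markers ranged from -0.42 to 0.96 in the cHF and from -0.66 to -0.02 in the cHF+ROSI mice.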
